A study of Caenorhabditis elegans with 15 samples.

Results

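The 128 genes described here are Caenorhabditis elegans genes that carry only a sequence name, the name of a genomic clone followed by a number (such as C06E8.5), and whose RNA was highest in lethargus. They were chosen from 17118 genes read from 1 probe set each, of which 6718 had a sequence name. A gene was kept when its mean over the L4-lethargus arrays exceeded both the L4 mean and the Adult mean by 1.5 log2 or more. The values that chose the genes are therefore the differences of lethargus from L4 and from Adult, and these are given below as a description with no test. By the same differences, 1.91% of the sequence-named genes, 1.64% of the 10400 genes with another name (171 genes) and 1.75% of all genes were chosen. The annotation used gives no function for these 128 genes, so none is stated here. It lists 125 of them as protein-coding and 2 as pseudogenes, and 1 was not matched.

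The animals were hermaphrodites of the wild-type strain N2 (Bristol) at all stages, grown from arrested first-stage larvae on DA837 bacteria at 20 °C and picked at 22.5 °C in batches of 20. The stages were L4 (late in that stage, moving and feeding, 42 h after feeding), L4-lethargus (45 to 50 h after feeding, collected once the pharynx had been still for 30 to 40 min) and Adult (whose age was not stated in the labels used). Each stage had 5 Affymetrix arrays, 15 in all, and each array held RNA of a pool of animals, 22.3 ± 7.0 ng in L4, 18.6 ± 3.5 ng in lethargus and 75.3 ± 10.3 ng in Adult per the labels, with cDNA amplified before hybridisation. The part of these RNA amounts in the results was not tested. Values are log2 expression. In RNA from whole animals, fewer cells that express a gene and less RNA per cell cannot be told apart.

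Lethargus is the quiet period that ends each larval stage: locomotion and feeding stop while a new cuticle is completed under the old one, and the animal then molts. The epidermis and the pharynx both secrete and replace cuticle at each molt, and many of the genes that take part, among them collagens, secreted proteases and pharyngeal cuticle proteins, are transcribed in short pulses once per larval stage. Sequence-named genes with a pulse at the same time can be read beside these known genes, although a shared time does not give a function.

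Across the 128 genes the median of the stage means was 6.24 log2 in L4, 9.20 in lethargus and 6.13 in Adult. The lethargus means ran between 5.10 and 13.48. In 120 of the 128 genes (93.8%) all 5 lethargus arrays lay above all 10 arrays of the other stages, against 6.6% of all genes and 6.7% of sequence-named genes; since the same differences chose the genes, nothing is read from that count. Both lethargus differences passed an adjusted p of 0.05 (limma) in 127 of the genes, against 8.04% of all genes and 8.41% of sequence-named genes called higher in both, and nothing is read from this count either. Taken singly, 16.0% of all genes and 16.6% of sequence-named genes were higher in lethargus than in L4, and 26.2% and 28.5% higher in lethargus than in Adult. The smaller of the 2 differences was under 2 log2 in 54 genes, between 2 and 3 in 47, between 3 and 4 in 15, and 4 or more in 12.

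**Figure D1:**
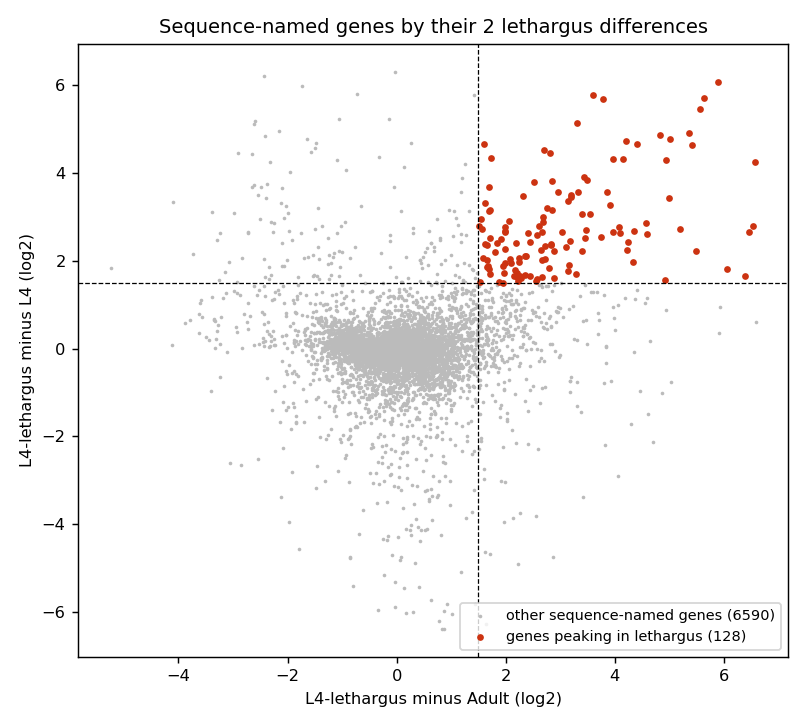
Each point is 1 of the 6718 sequence-named genes, placed by its lethargus minus Adult difference (x axis, log2) and its lethargus minus L4 difference (y axis, log2), and dashed lines mark 1.5. The 128 genes (red) fill the upper right corner, while the bulk of the other genes lies near 0 on both axes.

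The smaller difference was 1.513 for F22B7.9, 1.513 for W03D2.6 and 1.501 for T19D12.1, inside the threshold, and 1.495 for F26F12.4, 1.469 for C25E10.5 and 1.455 for H17B01.2, outside it. F22B7.9 had means of 6.33 in L4, 9.12 in lethargus and 7.61 in Adult, and T19D12.1 had 9.90, 11.40 and 9.44 at the same stages.

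The other stages were often not above background. Background was set at 5.56 log2, a bound below which 95% of the values of 32 controls for genes of other organisms lay. Of the 128 genes, 33 had both their L4 and their Adult mean below it, 16 only their Adult mean, 8 only their L4 mean, and 71 neither. Where the dimmer stage was below the bound, a change is given as at least N-fold, counted from the bound or, on an array above it, from that array's own value. In R08A2.5, named after its values were seen, the lethargus mean (5.10) was itself below the bound, so no fold is read for it.

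The 3 genes with the largest smaller difference were at background in both neighbouring stages. C06E8.5 had 3.40, 3.67, 3.13, 3.23 and 3.45 in L4, 8.62, 9.39, 9.67, 10.00 and 9.52 in lethargus, and 3.56, 3.97, 3.50, 3.43 and 3.25 in Adult. Its lethargus arrays stood far above every other array, and its level was at least 14.7-fold above both L4 and Adult.

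C06A1.6, whose probe set shares probes with other transcripts, had 2.94, 3.32, 3.67, 3.15 and 2.83 in L4, 9.18, 8.02, 9.81, 9.34 and 8.06 in lethargus, and 3.42, 3.15, 3.32, 3.17 and 3.19 in Adult. Within lethargus, replicates 2 and 5 were the lowest and replicate 3 the highest. The gene was at least 9.97-fold above both stages.

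W08E12.2 had 3.37, 3.86, 3.27, 3.17 and 3.10 in L4, 9.04, 8.97, 8.84, 8.04 and 9.17 in lethargus, and 3.05, 3.51, 3.20, 3.14 and 3.30 in Adult. Lethargus replicate 4 was the lowest of its stage, and the groups did not overlap. The rise was at least 9.51-fold against both stages.

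K10H10.4 and F48G7.5 also lay below the bound in L4 and Adult. K10H10.4 had 8.95, 10.42, 10.31, 11.06 and 10.84 in lethargus, with means of 5.44 ± 0.23 in L4 and 5.49 ± 0.13 in Adult (SD, n = 5 each). Lethargus replicate 1 was its lowest lethargus array, and the gene was at least 26.1-fold above L4 and at least 26.4-fold above Adult. F48G7.5, read from shared probes, had 8.66, 8.72, 10.14, 10.03 and 8.87 in lethargus, and was at least 13.2-fold above both stages. Its lethargus replicates 3 and 4 stood more than 1 log2 above the other 3 arrays.

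K04C2.5 and C29F3.3 lay just above the bound in the other stages. K04C2.5 had 10.70, 10.94, 11.13, 11.20 and 10.84 in lethargus, with means of 6.18 ± 0.19 in L4 and 5.95 ± 0.26 in Adult (SD, n = 5 each), and was 27.5-fold above L4 and 32.2-fold above Adult. C29F3.3 had 9.68, 10.48, 10.73, 11.08 and 10.24 in lethargus, with means of 5.71 ± 0.47 in L4 and 6.24 ± 0.43 in Adult, and was 26.6-fold and 18.4-fold above them. C45B2.8, read from shared probes, had 10.44, 10.11, 10.44, 10.21 and 9.94 in lethargus and was at least 21.7-fold above L4 and 21.3-fold above Adult.

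F23F1.2, D2096.6 and T25E4.1 had a common feature in L4, where replicate 3 stood apart. F23F1.2 had 5.50, 4.99, 8.20, 5.27 and 5.58 in L4, 11.12, 10.18, 11.61, 10.75 and 10.39 in lethargus, and 5.15, 5.57, 5.52, 5.56 and 5.46 in Adult. L4 replicate 3 was well above the other 4 L4 arrays, yet below each lethargus array. D2096.6, read from shared probes, had 5.90, 5.65, 8.40, 6.22 and 6.22 in L4, with a lethargus mean of 11.11 ± 0.49 (SD, n = 5). T25E4.1 had 5.40, 5.38, 7.84, 5.55 and 5.47 in L4, with a lethargus mean of 10.22 ± 0.48. In all 3 genes the lethargus array with the highest value was replicate 3.

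**Figure D2:**
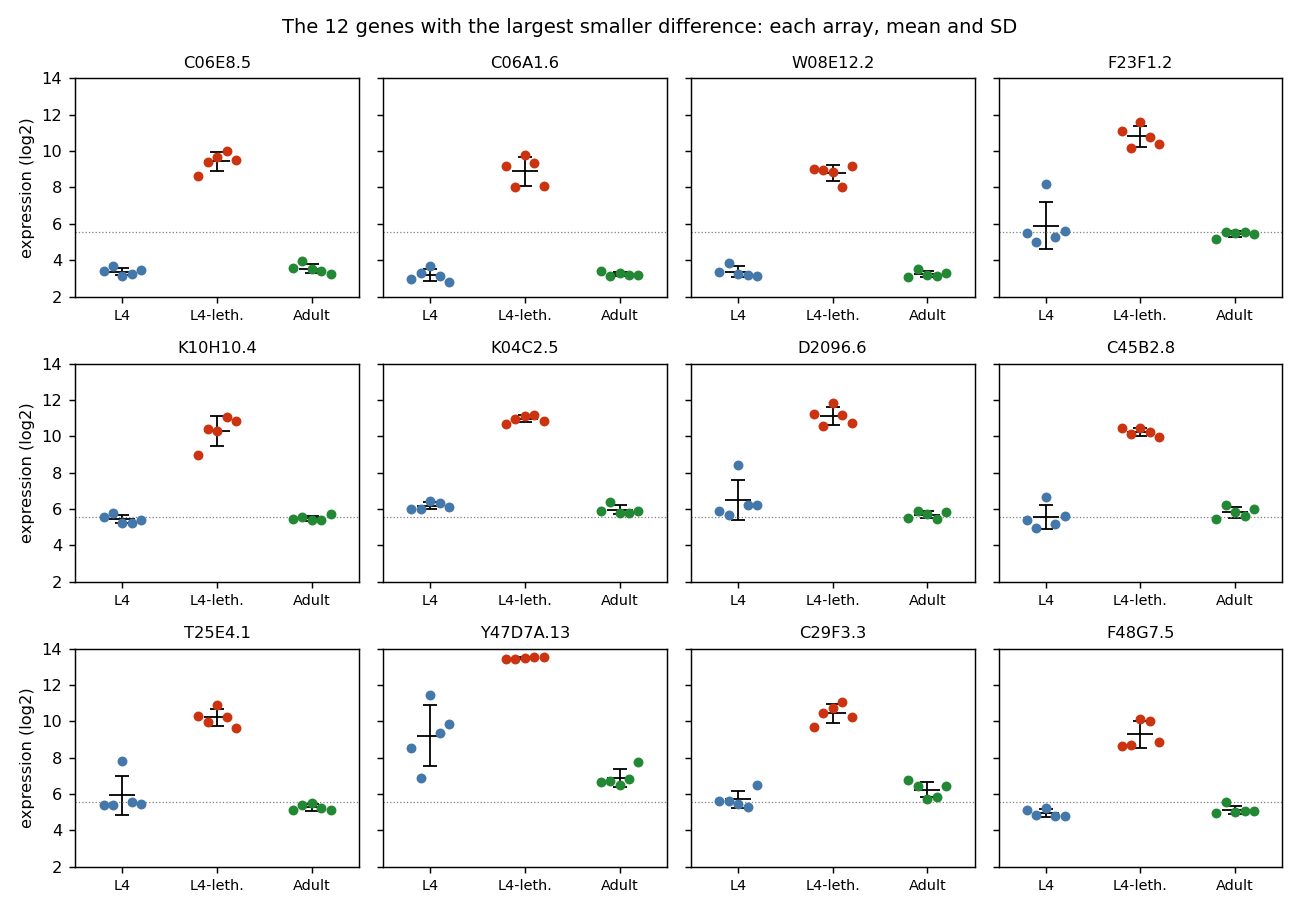
Each panel shows 1 of the 12 genes with the largest smaller difference, with log2 expression on the y axis, 1 point per array and a black bar for the mean and SD of the 5 arrays of a stage. The dotted line is the background bound (5.56), and in every panel the lethargus arrays stand above the L4 and Adult arrays, with L4 replicate 3 raised in F23F1.2, D2096.6, C45B2.8, T25E4.1 and Y47D7A.13.

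Y47D7A.13 had the brightest signal in lethargus among the 128 genes, which sets no expression level against that of another gene. Its values were 8.56, 6.88, 11.44, 9.38 and 9.83 in L4, 13.41, 13.42, 13.52, 13.53 and 13.52 in lethargus, and 6.69, 6.70, 6.51, 6.82 and 7.77 in Adult. The lethargus arrays lay within a narrow range, while the L4 arrays were spread widely, with replicate 2 lowest and replicate 3 highest. It was 19.2-fold above L4 and 95.7-fold above Adult. On the same arrays 51 probe sets had a higher lethargus mean, up to 14.09; whether its probes were saturated was not tested.

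ZK180.5, H10E21.4, R12E2.7, R12E2.14 and R12E2.15 followed it in signal, and all 5 were read from probe sets that share probes with other transcripts. H10E21.4 had 10.50, 9.66, 12.18, 11.95 and 11.86 in L4, 13.05, 12.95, 12.92, 12.71 and 12.79 in lethargus, and 6.48, 6.53, 6.42, 6.41 and 6.68 in Adult. It was thus already high in L4, with a rise of 3.15-fold into lethargus, and 83.3-fold above Adult. ZK180.5 had 10.28, 8.81, 12.51, 11.20 and 11.62 in L4, 13.10 ± 0.28 in lethargus and 7.60 ± 0.15 in Adult (SD, n = 5 each).

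Whether the genes lay higher in Adult or in L4 is the contrast the choice of genes did not use. The choice only keeps both means at least 1.5 log2 below lethargus, and so limits but does not fix it. With limma and a threshold of 0.05 on the adjusted p, 24 of the 128 genes (18.8%) were higher in Adult than in L4 and 44 (34.4%) were lower, and 60 were not called. Of all 17118 genes, 30.8% were called higher in Adult and 28.7% lower, and of the sequence-named genes 30.2% and 31.9%. Of the 171 genes with another name and the same differences, 12.3% were higher and 30.4% lower. The median Adult minus L4 difference was -0.15 log2 over the 128 genes, -0.16 over those 171 and 0.08 over all genes. Over the 128 genes it was -0.05 without L4 replicate 3 and -0.25 without L4 replicate 2.

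That split depended on how the arrays were scaled. The array medians differed by -0.21 log2 between Adult and L4, and centring each array on its median gave 38 genes higher and 34 lower in Adult among the 128, with a median of 0.06, against 49.3% higher and 22.6% lower and a median of 0.29 over all genes. Among the called genes, 3 that were higher and 4 that were lower in Adult had both means below the bound, and no difference is read for them.

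**Figure D3:**
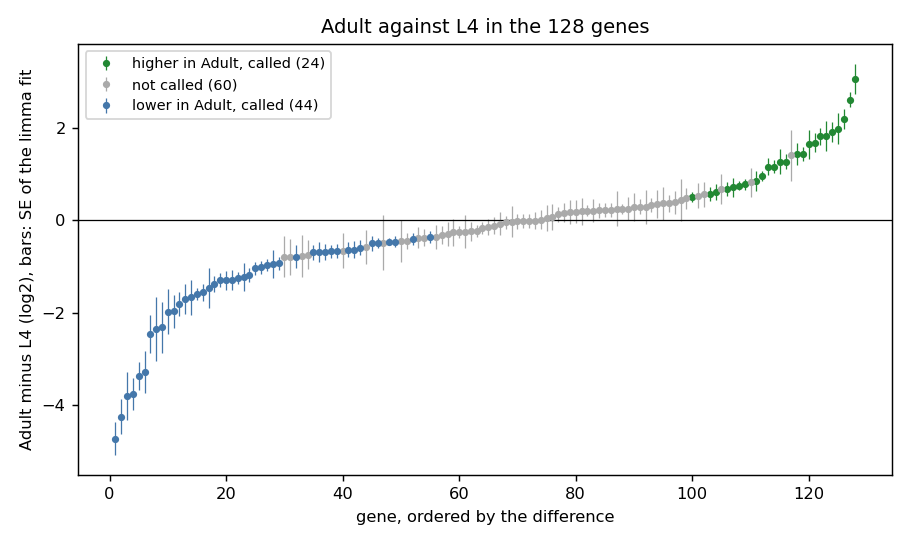
The Adult minus L4 difference of each of the 128 genes (y axis, log2, with the SE of the limma fit) is plotted in order of its size (x axis). The 44 genes called lower in Adult reach -4.72 at the left, and the 24 called higher reach 3.07 at the right.

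The genes with the largest falls in Adult were well above background in L4. A large fall can only be measured from a high L4 value, so nothing is read from that. H10E21.4 averaged 6.50 ± 0.11 in Adult and 11.23 ± 1.10 in L4 (SD, n = 5 each), 26.4-fold lower in Adult (limma adjusted p = 1.31e-08). R12E2.14 had 6.50, 6.97, 6.84, 6.89 and 6.47 in Adult, against 10.33, 9.43, 12.21, 11.27 and 11.65 in L4, 18.96-fold lower in Adult (limma adjusted p = 9.59e-08). The stages did not overlap in either gene.

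ZK662.2, read from its own probes, had 9.11, 6.63, 10.82, 9.73 and 10.22 in L4, 11.99, 11.71, 12.27, 12.06 and 11.78 in lethargus, and 5.39, 5.88, 5.51, 5.23 and 5.49 in Adult. Adult was not above background as a stage, so that the level was at least 12.8-fold lower in Adult than in L4 (limma adjusted p = 1.62e-05), and L4 replicate 2 lay nearest to the Adult arrays. R12E2.7 averaged 6.27 ± 0.21 in Adult and 10.02 ± 1.05 in L4 (SD, n = 5 each), 13.5-fold lower in Adult (limma adjusted p = 1.44e-07). Among the highest genes in lethargus, R12E2.15 and ZK180.5 were 10.3-fold and 9.72-fold lower in Adult than in L4 (limma adjusted p = 1.03e-07 and adjusted p = 1.9e-05).

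Another set of genes kept part of its lethargus level in Adult. F45E4.5 had 5.66, 5.23, 5.59, 5.26 and 5.77 in L4, 8.53, 10.45, 10.30, 10.97 and 10.63 in lethargus, and 8.45, 8.82, 8.34, 8.38 and 8.85 in Adult. Lethargus replicate 1 fell inside the Adult range, and F45E4.5 is 1 of the 8 genes whose lethargus arrays overlap another stage. Adult was at least 7.67-fold higher than L4 (limma adjusted p = 7.85e-07).

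C10C5.4, read from shared probes, had 9.38, 9.85, 9.72, 9.95 and 9.90 in Adult and 7.56, 6.73, 7.52, 6.78 and 7.14 in L4, with 11.50 ± 0.15 in lethargus (SD, n = 5), and was 6.11-fold higher in Adult than in L4 (limma adjusted p = 1.23e-09). Y4C6B.2 had 6.85, 7.42, 6.75, 6.71 and 7.02 in Adult and 5.31, 4.83, 3.88, 4.53 and 5.25 in L4, and was at least 2.61-fold higher in Adult (limma adjusted p = 3.88e-07). C07A4.3 averaged 7.54 ± 0.41 in Adult and 5.56 ± 0.93 in L4 (SD, n = 5 each) and was at least 3.24-fold higher in Adult (limma adjusted p = 1.26e-04). L4 replicate 3 of C07A4.3, at 6.96, came close to the lowest Adult array, 6.97.

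**Figure D4:**
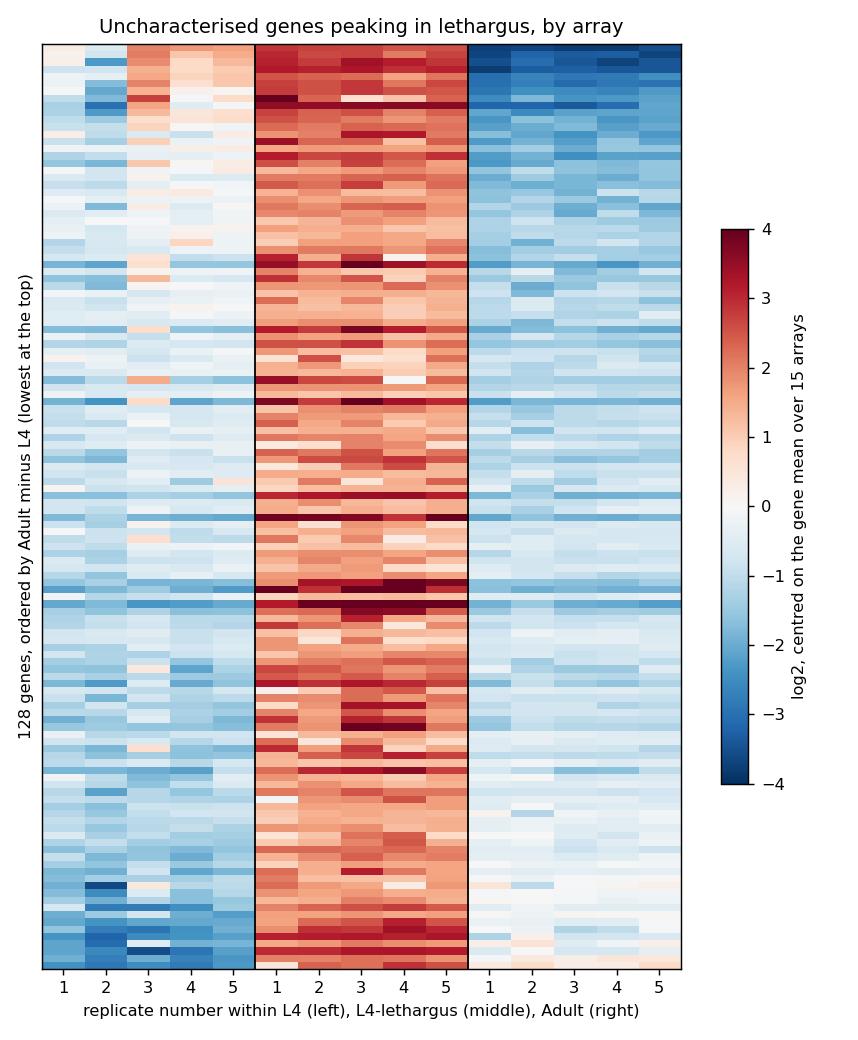
Rows are the 128 genes ordered by Adult minus L4 (lowest at the top), columns are the 15 arrays by stage and replicate, and colour is log2 expression centred on each gene's mean. The lethargus block is on average the warmest in each row, L4 is intermediate in the top rows and Adult in the bottom rows, and L4 replicate 3 is warmer than the other L4 arrays in many rows.

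The arrays of a stage were not equally placed in these genes. The median SD within a stage was 0.35 log2 in L4, 0.30 in lethargus and 0.21 in Adult over the 128 genes, against 0.18, 0.15 and 0.17 over all genes. An SD of 0.9 or more in L4 was found in 21 of the 128 genes (16.4%) and in 0.818% of all genes. L4 replicate 3 was the highest of the 5 L4 arrays in 59 of the 128 genes (46.1%), and L4 replicate 2 the lowest in 68 (53.1%), whereas these arrays were highest and lowest in 27.9% and 21.4% of all genes. The 171 genes with another name and the same differences had these arrays highest and lowest in 58.5% and 43.3%, and an L4 SD of 0.9 or more in 14.6%. In Adult, replicate 2 was highest in 42.2% of the 128 genes and in 48.3% of all genes.

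L4 replicate 3 exceeded the mean of its stage by 1 log2 or more in 23 of the 128 genes (18.0%), in 33 of the 171 genes with another name and the same differences (19.3%) and in 0.631% of all genes. Among the 23 were Y47D7A.13, Y47D7A.15, ZK180.5, ZK662.2, R12E2.7 and R12E2.14 as well as F23F1.2, D2096.6 and T25E4.1. The largest excess was 2.61 in C28H8.5, which is named after its values were seen.

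In lethargus, replicate 3 was the highest array in 45 of the 128 genes (35.2%, against 13.3% of all genes) and the lowest in 4 (3.12%, against 16.8%). Replicate 4 was the lowest in 50 (39.1%, against 18.5%) and the highest in 30 (23.4%, against 28.8%). Replicate 1 was the lowest in 42 (32.8%) and the highest in 36 (28.1%), near its shares of 34.1% and 22.8% over all genes. The 171 genes with another name had replicate 3 highest in 35.1% and replicate 4 lowest in 36.3%. W03F8.6, F48G7.8, F45E4.5, ZK792.4 and R07B1.9 were lower in replicate 1 than in replicate 4, with differences of -2.69 to -2.18 log2. C49F8.15, T24C12.4, C28H8.5, C27D9.2 and C30H6.5 were higher in replicate 1, by 2.23 to 3.51 log2. These genes are the 5 at each end of that difference and, apart from F45E4.5 and C27D9.2, are named after their values were seen.

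The 8 genes whose lethargus arrays overlapped another stage were C49F8.15, E01G6.1, T24C12.4, T16G1.6, C28H8.5, R12A1.3, F45E4.5 and R07E5.4, and 7 of them are named for that reason, after their values were seen. C49F8.15 had 3.57, 4.25, 6.80, 3.97 and 3.68 in L4, 8.80, 8.0, 7.93, 5.29 and 7.61 in lethargus, and 3.95, 4.11, 3.92, 3.94 and 3.93 in Adult. Lethargus replicate 4 fell below L4 replicate 3, and the other lethargus arrays lay above it. T24C12.4, E01G6.1 and R12A1.3 overlapped in the same way, each with lethargus replicate 4 below L4 replicate 3 and above the other 4 L4 arrays.

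C28H8.5 had 5.03, 4.29, 8.79, 6.02 and 6.79 in L4, 10.09, 8.39, 6.72, 7.19 and 8.41 in lethargus, and 3.54, 4.25, 3.70, 3.76 and 3.91 in Adult. L4 replicates 3 and 5 lay inside its lethargus range, and all 5 Adult arrays lay below every L4 array. T16G1.6 had 7.62, 8.65, 7.07, 8.04 and 8.95 in lethargus and 5.50, 5.94, 6.13, 5.17 and 7.09 in L4, where replicate 5 lay just above the lowest lethargus array. R07E5.4 had 6.58, 4.89, 8.92, 7.39 and 7.46 in L4, 10.74, 10.20, 10.05, 8.80 and 10.25 in lethargus, and 9.0, 7.44, 8.52, 8.61 and 8.70 in Adult, with lethargus replicate 4 inside both other ranges.

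The variation of L4 replicate 3 and that of lethargus replicates 1 and 4 went together in part. Of the 23 genes raised in L4 replicate 3, 20 were higher in lethargus replicate 1 than in replicate 4, with a median difference of 0.64 log2; of the other 105 genes, 49 were, with a median of -0.03. Over all genes, 73 of 108 raised genes were higher in replicate 1, with a median of 0.66, and 7107 of the other 17010, with a median of -0.06. Among the 171 genes with another name and the same differences, 21 of 33 raised genes and 73 of the other 138 were higher in replicate 1. The 108 raised genes include these 33 and the 23 above, so all genes are no separate set. Across the 128 genes the excess of L4 replicate 3 and the difference of lethargus replicate 1 from replicate 4 had Pearson's r = 0.50 and Spearman's rho = 0.43, across those 171 r = 0.23 and rho = 0.28, and over all 17118 genes r = 0.05 and rho = -0.12. The points share the same 15 arrays and their scaling, and genes are not independent replicates, so these values are a description.

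**Figure D5:**
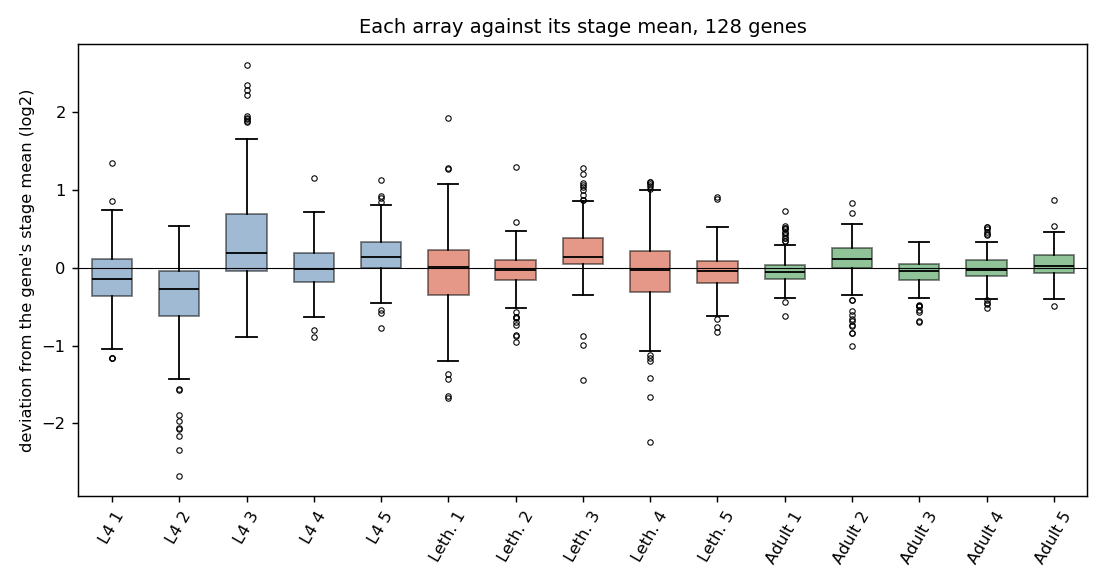
For each of the 15 arrays (x axis) the box shows the deviations of the 128 genes from their own stage mean (y axis, log2; line at the median, box from the lower to the upper quartile, whiskers to the last gene within 1.5 box lengths, circles beyond). L4 replicate 3 extends furthest upward and L4 replicate 2 furthest downward, lethargus replicates 1 and 4 are the widest of their stage, and the Adult boxes are narrow.

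Other probe sets of the same genes gave the same pattern. Of the 128 genes, 15 had at least 1 more probe set naming them alone, 16 in all, and all 16 had their highest mean in lethargus. The differences from both other stages were 1.5 log2 or more in 14 of the 16, among them a second probe set of R03C1.1 with means of 4.34 in L4, 9.57 in lethargus and 4.64 in Adult. The exceptions were those of ZK180.5 (1.48 against L4 and 6.43 against Adult) and Y97E10AR.1 (1.15 and 0.81). That of Y97E10AR.1 was below the background bound at every stage (3.48 in L4, 4.62 in lethargus and 3.81 in Adult), so no pattern is read from it. These values come from the same arrays and the same contrast, and are no independent test.

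Some of the genes are neighbours in the genome. In the order of protein-coding genes of the RefSeq annotation (assembly WBcel235), 126 of the 128 genes were placed, and 11 of them formed 4 runs with no gene between the members. The runs were R12E2.15, R12E2.14, R12E2.6 and R12E2.7, then C27D9.2, F26G1.3 and F26G1.2, then Y47D7A.15 and Y47D7A.13, and C54D10.9 and C54D10.10.

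Levels of different probe sets are not compared here. In the first run, R12E2.7, R12E2.14 and R12E2.15 were lower in Adult than in L4, as given above. R12E2.6, read from its own probes, averaged 5.25 in L4, 7.59 in lethargus and 4.87 in Adult, with L4 and Adult below the bound, so that no Adult difference is read for it. R12E2.8, next to R12E2.7, had means of 5.90, 5.58 and 5.80 at these stages and was not called in lethargus against L4 or against Adult (limma adjusted p = 0.242 and adjusted p = 0.455). The 3 high genes of this run are read from shared probes, so their values may not be separate.

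Y47D7A.15 had 9.54, 7.55, 11.02, 9.80 and 9.72 in L4, 12.41, 12.16, 12.46, 12.17 and 12.09 in lethargus, and 6.71, 7.17, 7.09, 6.97 and 7.35 in Adult. As in its neighbour Y47D7A.13, L4 replicate 2 was the lowest and replicate 3 the highest L4 array, and both genes were lower in Adult than in L4, by 5.53-fold for Y47D7A.15 and 4.99-fold for Y47D7A.13 (limma adjusted p = 1.11e-04 and adjusted p = 0.00339). The next gene, pugs-11, averaged 5.24 in L4, 5.26 in lethargus and 6.15 in Adult. It was not called in lethargus against L4, and was lower in lethargus than in Adult (-0.89 log2, limma adjusted p = 5.6e-06).

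C54D10.10 had 6.43, 5.22, 5.09, 5.59 and 6.08 in L4, 9.85, 10.91, 10.84, 11.40 and 11.06 in lethargus, and 8.02, 7.76, 6.81, 6.99 and 7.96 in Adult. It was 3.54-fold higher in Adult than in L4 (limma adjusted p = 1.84e-04), whereas its neighbour C54D10.9 had means of 6.11 in Adult and 6.10 in L4. In the run of C27D9.2, F26G1.3 averaged 2.78 in L4, 6.35 in lethargus and 3.02 in Adult, C27D9.2 averaged 3.45, 6.33 and 3.65 at these stages, and F26G1.2 averaged 7.42, 9.09 and 6.64. C27D9.1, which flanks this run, averaged 6.88, 8.47 and 9.89: it was higher in lethargus than in L4 by 1.59 log2 (limma adjusted p = 1.44e-05) and lower than in Adult (-1.42, adjusted p = 2.02e-05). The other measured flanks, ttm-2, pals-38 and F28C1.1, differed from L4 in lethargus by 0.02, -0.07 and 0.12 log2 and were not called (limma adjusted p = 1, 1 and 0.688). Against Adult, F28C1.1 was lower in lethargus (-0.46 log2, limma adjusted p = 4.72e-04). ttm-2 (-0.34, limma adjusted p = 0.0965) and pals-38 (0.14, limma adjusted p = 0.981) were not called against Adult. F26G1.2 was lower in Adult than in L4 by 0.78 log2 (limma adjusted p = 0.0197), a call that ended when L4 replicate 3 (limma adjusted p = 0.0569), Adult replicate 3 (0.0635) or Adult replicate 4 (0.0557) was left out, with median-centring (0.0659) and with quantile normalization again (0.0949).

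Genes next to the 128 that did not themselves belong to them were measured too, and the choice did not use them. Of 206 such neighbours, 35 (17.0%) were called higher in lethargus than in both other stages by limma, against 8.04% of all genes. Higher in lethargus than in L4 were 60 (29.1%, against 16.0% of all genes), and higher in lethargus than in Adult were 92 (44.7%, against 26.2%). Their median differences were small, at 0.08 log2 from L4 and 0.13 from Adult, against 0.00 and -0.08 over all genes. No test of these shares was made.

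Of these neighbours, 8 met the differences of 1.5 log2 from both stages. They were idpp-12, bcl-11, abu-4, cyp-32A1, ccch-1, cutl-12, hasp-2 and irg-2. All have a gene name by definition, since a sequence-named gene that met the differences would itself have been chosen. idpp-12 averaged 5.09 in L4, 11.11 in lethargus and 5.24 in Adult, given with no test since the same differences picked it. The cytochrome P450 gene cyp-32A1 averaged 5.25, 9.04 and 6.78 at these stages, and the cuticlin-like gene cutl-12 averaged 5.20, 7.31 and 5.29. These 8 are the complete set of neighbours that met the differences and are named after their values were seen.

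The genes with another name were also set in order of how near their course over the 15 arrays lay to the median course of the 128. Nearness was the root mean square distance after each gene was centred on its own mean. The 10 nearest were srz-20, tre-5, hasp-2, gtnt-41, cut-4, str-131, col-65, lec-7, ptr-23 and ptr-20, at distances of 0.21 to 0.34 log2. col-65 encodes a cuticle collagen, cut-4 a cuticlin, ptr-23 and ptr-20 patched-related proteins, tre-5 a trehalase and lec-7 a galectin.

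The cuticlin gene cut-4 averaged 6.84 ± 0.68 in L4, 9.55 ± 0.13 in lethargus and 6.53 ± 0.26 in Adult, and the collagen gene col-65 averaged 9.96 ± 0.29, 11.94 ± 0.12 and 9.23 ± 0.23 (SD, n = 5 each). ptr-23 averaged 8.96 ± 0.19, 11.05 ± 0.13 and 8.93 ± 0.20. srz-20, which belongs to a family of chemoreceptor genes, was below the bound at every stage (5.26 in lethargus), so its nearness describes dim values. Below the bound in L4 and Adult were also str-131 (3.65 in L4, 6.73 in lethargus and 3.65 in Adult) and tre-5 (5.35, 7.64 and 5.00). ptr-20 was below it in Adult only (5.45).

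Gene classes with 3 or more of the 171 genes of another name were counted in the same way. The cuticle collagens of the col class had 22 of 128 measured genes, the astacin metalloproteases of the nas class 10 of 33, the idpp class 8 of 16, the abu class of pharyngeal cuticle genes 7 of 11, the ground-like grl class 6 of 30, the pqn class 6 of 47, and the idpc class 5 of 5. With 4 genes each followed nspb (of 4 measured), ptr (of 24) and the cytochrome P450 class cyp (of 73), and with 3 each dbd (of 13), oac (of 52), nlp (of 58), ugt (of 64) and str (of 177). These counts follow from the rule and carry no test.

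Lists of genes known from the molt, and 2 lists of whole gene classes, give a scale for the 128 genes. The astacin list and the ground-like and groundhog list hold all measured genes of their classes, whether or not known from the molt. In these 2 lists, 9 and 13 genes were below the bound at every stage. Of 11 measured genes of the pharyngeal cuticle list, 9 were called higher and 2 lower in lethargus than in L4 and 11 higher and 0 lower than in Adult, with medians of 5.52 and 5.75 log2, and 9 met both differences. abu-15 averaged 12.67 ± 0.37 in lethargus, against 4.15 ± 0.27 in L4 and 4.56 ± 0.11 in Adult (SD, n = 5 each), at least 138-fold above L4, and is read from shared probes. Of 33 astacins, 20 were higher and 4 lower than in L4 and 19 higher and 6 lower than in Adult, with medians of 0.98 and 0.62, and 10 met both differences. nas-30 averaged 5.63 in L4, 9.62 in lethargus and 5.92 in Adult.

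Of 42 ground-like and groundhog genes, 16 were higher and 13 lower than in L4 and 19 higher and 3 lower than in Adult, with medians of 0.03 and 0.36, and 7 met both differences. Of 9 genes of the list of molting peptidases, inhibitors and matrix proteins, 3 were higher and 4 lower than in L4 and 7 higher and 1 lower than in Adult, with medians of 0.29 and 2.30, and 3 met both. The largest called differences from L4 in this list were falls, in noah-2 (-5.47 log2), mlt-11 (-4.13) and noah-1 (-3.46). Of 8 transcription regulators of the molt, 0 were higher and 6 lower than in L4 and 3 higher and 1 lower than in Adult, and none met both differences, with medians of -0.91 and 0.64. myrf-1 averaged 9.44 in L4, 6.71 in lethargus and 6.38 in Adult. Over all genes, 15.6% were called lower in lethargus than in L4 and 31.0% lower than in Adult, and of the sequence-named genes 17.0% and 29.6%.

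Markers of tissues moved with stage as well. All 11 oocyte and eggshell markers were higher in lethargus than in L4 and lower than in Adult (limma), with a summed level of 12.32 to 13.59 log2 in L4, 14.51 to 15.03 in lethargus and 15.85 to 15.93 in Adult. All 5 yolk markers were higher in lethargus than in L4, and 0 were higher and 2 lower than in Adult, with summed levels of 12.01 to 12.35, 15.07 to 15.19 and 15.72 to 15.88. The 7 pharynx markers had 4 higher and 0 lower than in L4 and 4 higher and 1 lower than in Adult, with summed levels of 9.96 to 10.94, 10.86 to 12.01 and 10.10 to 10.78. None of these markers met both differences of the rule, and their part in the levels of the 128 genes was not tested.

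For the other tissues, called higher and lower in lethargus than in L4 were 0 and 3 of 6 sperm markers, 1 and 3 of 5 epidermal markers, 0 and 1 of 3 body wall muscle markers, and 1 and 1 of 3 intestinal markers. Of 4 neuronal markers limma called 0, with 1 at an unadjusted p under 0.05, and of 6 embryo markers it called 0, with 0 at that unadjusted p and 4 below the bound at every stage. Against Adult, called higher and lower in lethargus were 3 and 0 of the sperm markers, 1 and 1 of the epidermal, 1 and 0 of the body wall muscle, 3 and 0 of the intestinal (median 1.21 log2), 2 and 1 of the neuronal and 1 and 1 of the embryo markers. The epidermal markers summed to 13.77 to 14.13 log2 in L4, 13.50 to 13.72 in lethargus and 13.16 to 13.77 in Adult. They include cuticle collagens and a transcription regulator that is also on the list of regulators of the molt. How far their sum follows the molt and not the amount of epidermis was not tested.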

How the data were processed

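The deposited log2 values, 1 for each probe set of the Affymetrix arrays, come from RMA (per the submitters' processing notes, which name no version of it). RMA corrects for background, sets the probe values of the arrays to 1 distribution and summarises the probes of a set. A change of total RNA can therefore not be read, and folds of dim genes are understated. The summarised values still differed by stage, with mean array medians of 7.47 log2 in L4, 7.52 in lethargus and 7.26 in Adult. The RNA integrity number exceeded 5, per the labels.

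Of 22625 probe sets, 77 controls were left out; of the other 22548, 20766 named 1 gene, 887 several and 895 none. A gene with several probe sets (2981 of 17118) was read from that with the highest mean. Suffixes _s_at and _x_at, which mark shared probes, applied to 24 of the 128 genes.

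limma 3.58.1 in R 4.3.3 (lmFit, eBayes) was fitted to the 15 arrays with 1 mean per stage. The fit takes 1 spread per probe set for all 3 stages. In some genes the L4 arrays were spread more widely, as in Y47D7A.13 (SD 1.68 in L4, 0.06 in lethargus and 0.50 in Adult). The p-values of such genes rest on an equal spread that their arrays did not show. P-values were multiplied by 2, as in the series design, and adjusted (Benjamini-Hochberg) over the 22548 probe sets, with calls at 0.05. R/maanova, named there, was not run. The fit was also run on simulated data with independent noise for each probe set. These data held no deviations shared by the genes of an array, and nothing is read from them here. Errors are SDs over 5 arrays unless called SE; the number of arrays limits precision, and the labels do not say whether the pools came from separate cultures, and the p-values then reflect no more than the spread between pools, which may be technical.

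The genes, lists and tests were chosen with earlier results of these data known. Named genes were the 12 with the largest smaller difference, the 6 with the highest lethargus mean, 3 inside and 3 outside the threshold, the 4 largest rises and falls in Adult, members of runs, the 10 nearest named genes and at most 3 genes per molt list. Protein and promoter features were not analysed here. The background bound was chosen after seeing the data. Alternatives covered scaling, filters, probe set choice, p-values, a replicate block and left-out arrays. Same-numbered arrays of different stages did not deviate together (correlations of -0.24 to 0.13), so replicate numbers were not taken as pairs. Figures used matplotlib 3.10.9.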

Additional observations from a re-analysis of the deposited data

Results flagged for a closer look

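In the 31 named genes, 93 stage groups of 5 arrays were looked at, and 11 held an array that stood apart. Its gap to the nearest other array was more than 0.71 of the range of the group (Dixon's 95% critical value). Chance flags about 1 in 20 groups that are independent and normally distributed. These groups come from chosen genes on the same arrays, so 1 array can count in several genes. No excess over that rate is read. L4 replicate 3 was high in F23F1.2 (8.20, the others 4.99 to 5.58), D2096.6 (8.40, the others 5.65 to 6.22) and T25E4.1 (7.84, the others 5.38 to 5.55). L4 replicate 5 was high in C29F3.3 (6.52, the others 5.28 to 5.64). In lethargus, replicate 4 was low in W08E12.2 (8.04, the others 8.84 to 9.17) and replicate 1 low in F45E4.5 (8.53, the others 10.30 to 10.97).

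In Adult, replicate 2 was high in K04C2.5 (6.40, the others 5.78 to 5.90) and in F48G7.5 (5.55, the others 4.98 to 5.09, all below the background bound). Adult replicate 5 was high in Y47D7A.13 (7.77, the others 6.51 to 6.82). Adult replicate 1 was low in F23F1.2 (5.15, the others 5.46 to 5.57, near the bound) and in R12E2.7 (5.91, the others 6.28 to 6.43).

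Probe sets outside the gene table also held the pattern. Of those naming several genes, 20 had a lethargus mean at least 1.5 log2 above both L4 and Adult, and of those with no gene named, 8 did, with a smaller difference of up to 7.39 log2.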

How the results depend on the processing

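The number of genes chosen was 237 at a threshold of 1 log2 and 74 at 2 log2. At 1.5 log2 it lay between 87 (without dim probe sets, where fewer genes are tested) and 135 (L4 replicate 3, lethargus replicate 1 and Adult replicate 2 left out together, an alternative chosen after seeing the data) under the other settings that leave out genes or change the scaling or probe set choice, and leaving out 1 array gave at most 136, without L4 replicate 3, and fewest without L4 replicate 2, which kept 118 of the 128. Median-centring chose 105 genes, all among the 128.

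In Adult against L4, median-centring gave 38 genes higher and 34 lower in place of 24 and 44. Leaving out 1 array gave 24 to 27 higher and 39 to 45 lower, and a median of -0.25 to -0.05 log2, nearest 0 without L4 replicate 3. With the 3 arrays left out it was -0.03, with 29 genes higher and 42 lower. The replicate block gave 25 higher and 43 lower among the 128 genes and 9873 calls in place of 10186 over all genes. Permutation p-values gave 24 and 41, and quantile normalization again 28 and 38. Of 885 values of the named genes under these alternatives, 871 kept their call or lack of one. A further 6 lost the call, 8 gained it and 0 were counted as reversed. Values near 0 that were not called can have changed sign and still count as kept. 5 of the 6 lost calls were those of F26G1.2; the other was T19D12.1 with median-centring (limma adjusted p = 0.118). Causes were not tested.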
